A study of Solanum lycopersicum with 21 samples.

Results

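SBP-box genes encode plant transcription factors, also called SPL proteins, that share a zinc-binding DNA-binding domain. Here 10 of the 35039 gene IDs in a leaf RNA count table of tomato (Solanum lycopersicum, cultivar M82) were described, taken by locus ID from a list of SBP-box loci. The list is headed by Solyc02g077920, the locus of CNR (Colorless non-ripening), known for its part in fruit ripening. The selection rule names locus IDs and sets no threshold on a measured value. The count table pairs no ID with a gene name, and 0 of the 10 loci matched an ID in the RefSeq gene table used here. The family assignment was therefore not checked against sequence, no locus other than CNR is given a name, and no sequence is shown. By the number in their IDs, 3 of the loci lie on chromosome 5 and 2 on chromosome 10, with 1 each on chromosomes 2, 3, 4, 7 and 12.

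Many SPL transcripts carry a site for the microRNA miR156, which cleaves them or blocks their translation. In many plants miR156 is abundant in juvenile shoots and declines as the plant ages, and the SPL factors it releases promote adult leaf traits, flowering and changes in branching. Strigolactones, hormones made from carotenoids that restrain branching, have been linked to miR156 in the after-effects of drought in tomato, and in rice an SPL protein acts within strigolactone signalling. Which of the 10 loci carry a miR156 site, and the level of mature miR156, were not analysed here.

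There were 21 libraries in 7 groups of 3. Wild-type plants and plants of line 6936, silenced for CCD7, a gene of strigolactone synthesis, were each sampled under irrigation, after recovery from 1 drought (recovery 1) and after recovery from 2 droughts (recovery 2). The 7th group was irrigated wild type sprayed with the synthetic strigolactone GR24 5DS at 5 µM, 24 h before sampling. Line 6936, here the depleted line, is a single silenced line whose strigolactone is cut by 70 to 80% in root tissue and exudates per the labels. Leaf strigolactone was not analysed here. The series description speaks of plants 3 weeks old, and each library pooled at least 3 fully expanded leaves, 1 per plant, with 5 plants named per condition. If 5 plants supplied 3 libraries of 3 or more plants each, libraries shared plants, and the p-values would then be too small. Recovery groups carry the time labels 31 and 76 against 0 for irrigation, without a unit, and the sprayed group carries 24. A water volume of 20 ml is recorded for the recovery groups of both genotypes, and none for the irrigated and sprayed groups. Drought history and time of sampling differ together between recovery and irrigation, and their parts cannot be told apart.

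Total counts per library ran from 19267602 to 35433511, and 3 counts, taken as the floor of a single library, equalled 0.0699 to 0.144 CPM (counts scaled to a common library total). Levels below are CPM scaled by TMM, a method that corrects for differences in library composition. A difference was called at an edgeR adjusted p under 0.05 over all 20373 IDs tested, and all 10 loci passed the filter on low counts. The sprayed libraries stood apart from the rest on the second principal component and were spread along the first, and replicate 16 of the depleted line at recovery 1 lay apart from replicates 12 and 17 of its group. Gene lengths were not used, so levels are compared between groups for a gene and not between genes.

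Over all 7 groups, 7 of the 10 SBP-box genes differed in at least 1 group, where 60.3% of all tested IDs did. The share is close to that background. Solyc05g012040.3, Solyc10g078700.2 and Solyc04g045560.3 were not called, with edgeR adjusted p of 0.199, 0.491 and 0.246. Without replicate 16 of the depleted line at recovery 1 Solyc04g045560.3 was called (0.0377), and Solyc07g053810.3 lost its call without irrigated replicate 3 (0.210) or 6 (0.0505) of the depleted line, without wild-type recovery 2 replicate 9 (0.0511) and in limma-voom (0.0541). Of the called loci, the ratio of the highest to the lowest group mean was smallest for Solyc05g015510.3, at 1.79, and largest for Solyc07g053810.3, at 13.8.

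**Figure D1:**
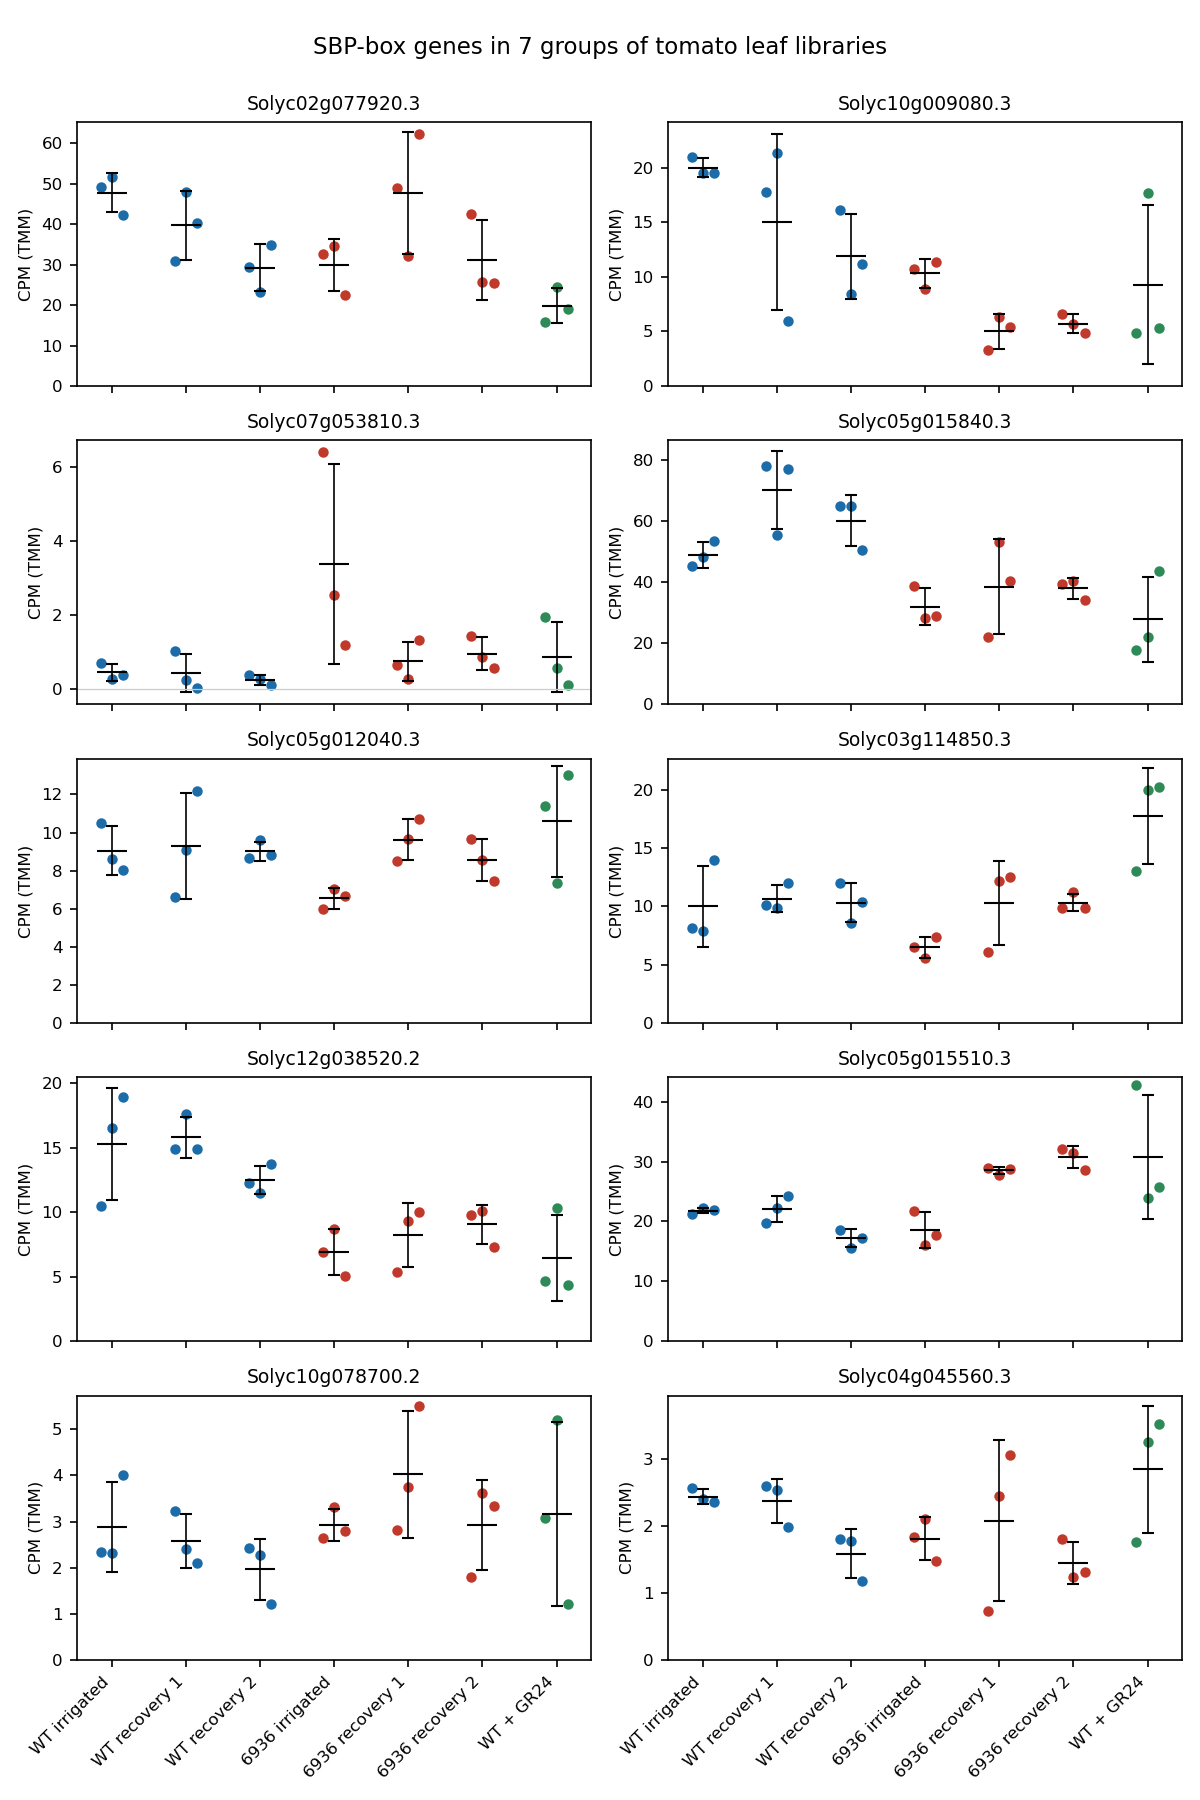
Level of each of the 10 SBP-box genes (CPM, TMM-scaled, linear axis) in each of the 21 libraries, by group, with points for libraries and bars for mean ± SD of 3. Blue is wild type, red the depleted line 6936 and green GR24-sprayed wild type. For Solyc12g038520.2 all 9 red points (5.09 to 10.1 CPM) lie below all 9 blue points (10.5 to 18.9 CPM).

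The first question was whether the genes differ between the genotypes. Averaged over the 3 conditions, 5 of the 10 were called, where 52.5% of all tested IDs were. In the depleted line Solyc12g038520.2, Solyc10g009080.3 and Solyc05g015840.3 were lower, and Solyc07g053810.3 and Solyc05g015510.3 were higher, so 3 of 10 were lower and 2 higher against 24.9% and 27.6% of all IDs. The other 5, CNR among them, were not called. These 5 calls were kept when any 1 of the 18 unsprayed libraries was left out. For Solyc05g015510.3 the averaged log2 fold change was only 0.32 ± 0.10 (SE, edgeR adjusted p = 0.0122), and 0.25 with upper-quartile factors (0.047). It joined unlike conditions, with −0.24 under irrigation, 0.37 at recovery 1 and 0.84 at recovery 2, so this gene was not higher under irrigation. In whole-leaf RNA, fewer cells of a type and less RNA per cell cannot be told apart.

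Solyc12g038520.2 was the 1 locus of the 10 with no overlap between all depleted and all unsprayed wild-type libraries. In irrigated wild type it stood at 10.5, 16.5 and 18.9 CPM, at recovery 1 at 14.9, 17.6 and 14.9, and at recovery 2 at 12.3, 11.5 and 13.7. In the depleted line it stood at 6.95, 8.72 and 5.09 CPM under irrigation, 5.40, 9.34 and 9.99 at recovery 1, and 9.75, 10.1 and 7.31 at recovery 2. Every depleted library lay below every unsprayed wild-type library, which held in either direction for 9.49% of all tested IDs. The averaged log2 fold change was −0.85 ± 0.18 (SE, edgeR adjusted p = 0.000869), so the depleted line held 0.555 times the wild-type level. By condition the log2 difference was −1.14 ± 0.32 under irrigation (adjusted p = 0.0104) and −0.94 ± 0.31 at recovery 1 (0.0429). The irrigated call was lost without depleted replicate 7 (0.0528), and the recovery 1 call without any 1 of its 6 libraries (0.0602 to 0.133). At recovery 2 it was −0.46 ± 0.31 and not called (0.280), although the 3 libraries of each genotype did not overlap there. Whether the difference shrank with recovery was tested by the interaction, which was not called (0.68 at recovery 2, 95% interval −0.25 to 1.61, adjusted p = 0.381).

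Solyc05g015840.3 showed the same direction. Its wild-type levels were 45.3, 48.2 and 53.6 CPM under irrigation, 78.2, 55.5 and 77.1 at recovery 1, and 65.0, 64.9 and 50.5 at recovery 2. Those of the depleted line were 38.9, 28.3 and 29.0 CPM, then 22.2, 53.2 and 40.3, then 39.6, 40.4 and 34.1. Of the 9 depleted libraries, 8 lay below the lowest unsprayed wild-type library, and replicate 17 of recovery 1, at 53.2 CPM, was the exception. The averaged log2 fold change was −0.71 ± 0.17 (SE, edgeR adjusted p = 0.00229). Taken singly in the fit of all groups, the difference was called at recovery 1 (−0.87 ± 0.30, adjusted p = 0.0497), and irrigation and recovery 2 gave −0.61 and −0.66 with adjusted p of 0.121 and 0.108. The call at recovery 1 was lost with RLE factors, another correction for library composition (adjusted p = 0.0526), and without the low-count filter (0.0638). Fits of 2 groups at a time called irrigation (0.0209) and recovery 2 (0.012) and did not call recovery 1 (0.104).

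Solyc10g009080.3 was also lower in the depleted line, with more scatter in the wild type. Irrigated wild type held 21.0, 19.5 and 19.5 CPM, recovery 1 17.8, 21.4 and 5.92, and recovery 2 16.1, 8.40 and 11.2. The depleted line held 10.7, 8.86 and 11.4 CPM under irrigation, 3.26, 6.36 and 5.41 at recovery 1, and 6.63, 5.70 and 4.83 at recovery 2. The groups did not overlap under irrigation or at recovery 2, and at recovery 1 wild-type replicate 4 lay inside the depleted range. The averaged log2 fold change was −1.20 ± 0.27 (SE, edgeR adjusted p = 0.00125), or 0.435 times the wild-type level. It was called at recovery 1 (−1.59 ± 0.47, adjusted p = 0.0249) and not under irrigation (−0.95 ± 0.46, 0.116) or at recovery 2 (−1.05 ± 0.46, 0.0992). Fits of 2 groups at a time called the other conditions instead, with adjusted p = 0.00351 under irrigation, 0.0216 at recovery 2 and 0.067 at recovery 1.

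Solyc07g053810.3 was higher in the depleted line but rested on few counts. Under irrigation its levels there were 6.38, 2.54 and 1.19 CPM, from 135, 53 and 28 counts, against 0.695, 0.263 and 0.386 CPM in the wild type, from 22, 8 and 10 counts. All 3 depleted libraries lay above the wild type, and the log2 fold change was 2.89 ± 0.98 (SE, edgeR adjusted p = 0.0300, 95% interval 0.83 to 4.95). Without replicate 3 of the depleted line it was 2.04 and not called (0.136), and the call was also lost without wild-type replicate 7 (0.109) or 14 (0.0877). At recovery 1 the genotypes overlapped, with 0.647, 0.267 and 1.32 CPM against 1.02, 0.227 and 0.0344. At recovery 2 they stood at 1.43, 0.851 and 0.562 against 0.362, 0.260 and 0.109 CPM, not overlapping and not called (adjusted p = 0.159). The averaged log2 fold change was 1.88 ± 0.56 (adjusted p = 0.00994).

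CNR, Solyc02g077920.3, did not show a steady genotype difference. Its levels under irrigation were 49.3, 51.8 and 42.4 CPM in the wild type and 32.6, 34.7 and 22.5 in the depleted line. These did not overlap, yet the log2 difference of −0.67 ± 0.26 missed the threshold with TMM factors (SE, edgeR adjusted p = 0.0555). It passed with upper-quartile factors (−0.74, 0.0362), with RLE factors (−0.70, 0.0463) and in DESeq2 (−0.70, 0.0352). It also passed in an edgeR fit of the 2 groups alone (−0.70, 0.0225) and with replicate number as a block (−0.85, 0.0402). It missed in limma-voom (0.0512), without the low-count filter (0.0549) and whichever library was left out (0.0626 to 0.204). At recovery 1 the wild type held 30.9, 47.9 and 40.3 CPM and the depleted line 49.0, 32.1 and 62.3. At recovery 2 the values were 29.5, 23.3 and 34.9 against 42.6, 25.6 and 25.5 CPM. The ranges overlapped at both recoveries, with log2 differences of 0.27 ± 0.26 and 0.10 ± 0.26. Averaged over conditions the difference was −0.10 (95% interval −0.42 to 0.22, adjusted p = 0.589).

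Counted by condition, 2 of the 10 genes were called under irrigation, 3 at recovery 1 and 1 at recovery 2, where 34.4%, 19.6% and 26.6% of all tested IDs were. The depleted libraries did not overlap the wild type for 8 of the 10 under irrigation, 7 of them below it, where 48.5% of all IDs did not overlap in either direction and 23.7% lay below. For the recoveries the numbers were 3 and 5, with 36.6% and 48.9% over all IDs. The median log2 difference of the 10 genes was −0.54 under irrigation, 0.00 at recovery 1 and −0.04 at recovery 2, and over all IDs it was 0.03, 0.00 and 0.02. The 3 calls at recovery 1 changed with the library left out. None of Solyc10g009080.3, Solyc05g015840.3 and Solyc12g038520.2 was called without replicate 16, the depleted library that stood apart (log2 −1.36, −0.59 and −0.71, adjusted p = 0.0749, 0.152 and 0.133), nor without replicate 12 or wild-type replicate 1. Without depleted replicate 17, 2 of the 3 were called (Solyc10g009080.3 and Solyc05g015840.3, adjusted p = 0.0445 and 0.0278), and 1 was called without wild-type replicate 13 and 1 without replicate 4. A fit of these 2 groups alone called 0 of the 10 genes beside 12.5% of all IDs. The same kind of fit called 5 of the 10 under irrigation, beside 34% of all IDs, and 4 at recovery 2, beside 30.7%.

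**Figure D2:**
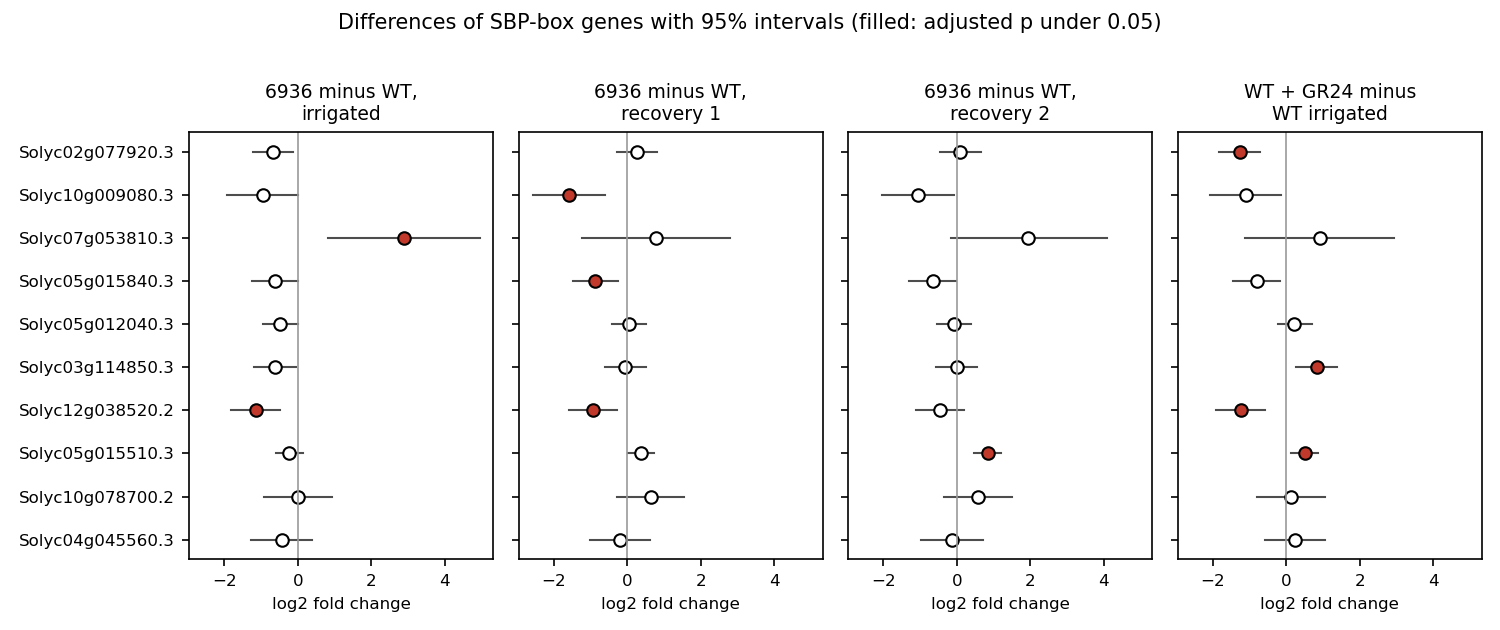
Log2 fold change of each SBP-box gene (points) with its 95% interval (lines) for line 6936 minus wild type in 3 conditions and for GR24-sprayed minus irrigated wild type, filled where the edgeR adjusted p was under 0.05. Filled points number 2, 3, 1 and 4 from left to right, and Solyc12g038520.2 lies below 0 in all 4 panels.

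The spray comparison asked whether the same genes differ between GR24-sprayed and irrigated wild type. None of the 7 groups is listed as mock-sprayed, and the sprayed and irrigated libraries carry the time labels 24 and 0. GR24, the spraying itself and the time of sampling therefore cannot be told apart. After GR24, 4 of the 10 genes were called, 2 lower and 2 higher, where 27.8% of all tested IDs were called (13.3% lower and 14.4% higher). CNR and Solyc12g038520.2 fell, and Solyc03g114850.3 and Solyc05g015510.3 rose. The sprayed libraries did not overlap irrigated wild type for 5 of the 10, where 40.4% of all IDs did not.

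CNR stood at 15.9, 24.5 and 19.1 CPM after the spray, against 49.3, 51.8 and 42.4 in irrigated wild type. All sprayed libraries lay well below the irrigated ones, and the sprayed mean of 19.8 ± 4.34 CPM (SD, n = 3) was the lowest of the 7 groups. The log2 fold change was −1.27 ± 0.27 (SE, edgeR adjusted p = 0.00210), or 0.415 times the irrigated level. The call was kept without any 1 of the 6 libraries, with log2 values of −1.45 to −1.13.

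Solyc12g038520.2 fell to 4.70, 10.3 and 4.36 CPM from 10.5, 16.5 and 18.9. Replicate 9 of the spray, at 10.3 CPM, came just under the lowest irrigated library. The log2 fold change was −1.24 ± 0.32 (SE, edgeR adjusted p = 0.00750), kept without any 1 of the 6 libraries, and not called in a fit of the 2 groups alone (0.0694). This locus was thus lower than in irrigated wild type both after GR24 and in the irrigated depleted line. The spray and the irrigated genotype comparison share the irrigated wild-type libraries, so the 2 differences are not independent.

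Solyc05g015840.3 and Solyc10g009080.3, lower in the depleted line, gave log2 differences of −0.81 ± 0.30 and −1.11 ± 0.46 after the spray and missed the threshold (SE, edgeR adjusted p = 0.0523 and 0.0797). Solyc05g015840.3 stood at 17.8, 22.2 and 43.8 CPM after GR24, below the irrigated 45.3 to 53.6. Solyc10g009080.3 stood at 4.87, 17.7 and 5.27 CPM, also below its irrigated libraries, with replicate 9 far above the other two. Without sprayed replicate 11 the former was called (−1.29, 0.00392), and without replicate 9 the latter (−1.98, 0.00278). Both were called by DESeq2 (adjusted p = 0.0302 and 0.0465) and by limma-voom (0.0342 and 0.0249). Neither was called in an edgeR fit of the compared groups alone (0.121 and 0.157) or without sprayed replicate 8 (0.184 and 0.235). Leaving out any irrigated library also gave no call of either (0.082 to 0.153). With RLE factors Solyc05g015840.3 was called (0.047) and Solyc10g009080.3 was not (0.0744).

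Solyc03g114850.3 rose from 8.12, 7.84 and 14.0 CPM to 13, 20.0 and 20.2 CPM after GR24. Irrigated replicate 14 overlapped the sprayed range, and the spray gave this gene its highest group mean, 17.7 ± 4.11 CPM (SD, n = 3). The log2 fold change was 0.83 ± 0.27 (SE, edgeR adjusted p = 0.0277). The call was lost without sprayed replicate 9 or 11 (0.0774 and 0.0915), without irrigated replicate 6 or 7 (0.112 and 0.123) and in a fit of the 2 groups alone (0.0937).

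Solyc05g015510.3 stood at 42.7, 24.0 and 25.7 CPM after GR24 against 21.3, 22.2 and 22.0, which the fit put at 0.50 ± 0.17 on the log2 scale (SE, edgeR adjusted p = 0.0422). The sprayed libraries all lay above the irrigated ones, but replicate 8 alone stood far above. Without replicate 8 the log2 fold change was 0.19 and not called (0.337), and the call was also lost without any 1 of the irrigated libraries (0.0847 to 0.109). RLE, upper-quartile and limma-voom settings also missed the threshold (0.0509, 0.0507 and 0.0652), as did the tests without the low-count filter and with the 2 groups alone (0.0520 and 0.194).

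**Figure D3:**
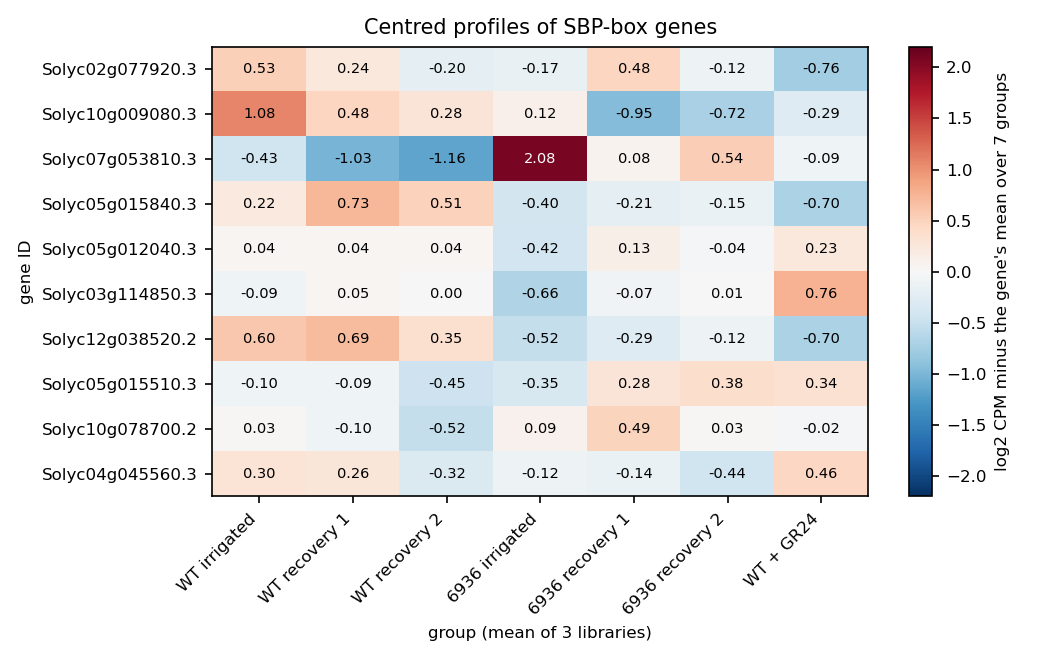
Mean log2 CPM of each SBP-box gene in each group of 3 libraries, minus that gene's mean over the 7 groups (red higher, blue lower). Solyc12g038520.2 and Solyc05g015840.3 are high in the 3 wild-type groups without spray (0.22 to 0.73) and low in the depleted line and after GR24 (−0.70 to −0.12).

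The next question was whether a past drought leaves these genes changed once plants are watered again. In the wild type, edgeR called 0 of the 10 genes at recovery 1 and 0 at recovery 2, where 0% and 4.89% of all tested IDs were called. At an unadjusted p under 0.05 the numbers were 0 and 1, against 6.77% and 24.5% of all IDs, and DESeq2 and limma-voom called 0 at each recovery. The gene with the unadjusted p was CNR at recovery 2, at 29.5, 23.3 and 34.9 CPM against 49.3, 51.8 and 42.4 under irrigation. The ranges did not overlap, and the log2 difference was −0.71 ± 0.26 (SE, edgeR adjusted p = 0.113). From recovery 1 to recovery 2 of the wild type, all 10 fitted differences were below 0, with a median of −0.35 on the log2 scale against −0.04 over all IDs, of which 45.5% were above 0. None of the 10 was called there by edgeR, DESeq2 or limma-voom and 0 had an unadjusted p under 0.05, where 0.304% of all IDs were called and 14.2% had such a p.

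In the depleted line 1 of the 10 genes, Solyc05g015510.3, rose at recovery 1 and at recovery 2, where 8.41% and 10.4% of all tested IDs were called and 2.83% and 4.35% rose. It stood at 21.8, 16.0 and 17.8 CPM under irrigation, at 29.0, 27.8 and 28.8 at recovery 1, and at 32.1, 31.4 and 28.6 at recovery 2. Libraries of both recoveries lay above all irrigated ones and close to each other. The log2 fold changes were 0.62 ± 0.17 and 0.73 ± 0.18 (SE, edgeR adjusted p = 0.0360 and 0.0146), or 1.54 and 1.66 times the irrigated level. Both recoveries are compared with the same irrigated libraries. The call at recovery 1 was lost without irrigated replicate 6 or 7 (0.159 and 0.122), without recovery replicate 16 or 12 (0.103 and 0.0892), at 0.05 without replicate 17, and in a fit of these groups alone (0.121). The call at recovery 2 was lost without irrigated replicate 6 or 7 (0.0756 and 0.0610).

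Solyc05g015510.3 in the wild type stood at 21.3, 22.2 and 22.0 CPM under irrigation, 19.8, 22.2 and 24.2 at recovery 1 and 18.6, 15.6 and 17.3 at recovery 2. Wild-type recovery 2 thus lay below irrigation without overlap, a log2 difference of −0.34 ± 0.17 that was not called (SE, edgeR adjusted p = 0.233). The interaction, which tests whether the genotypes respond differently, was 1.07 ± 0.25 on the log2 scale at recovery 2 (95% interval 0.55 to 1.59, adjusted p = 0.0167). It was called for this 1 gene of the 10, where 6.95% of all tested IDs were (3.12% in this direction), and kept without any 1 of the 12 libraries and under each of 6 other settings. At recovery 1 it was 0.61 ± 0.25 and not called (0.297). Between the genotypes at recovery 2 the log2 difference was 0.84 ± 0.18 (adjusted p = 0.00257), kept without any 1 of the 6 libraries. Under irrigation it was −0.24 ± 0.17 with overlapping ranges (0.311).

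For the interaction at recovery 1, 0 of the 10 genes were called by edgeR, DESeq2 or limma-voom and 2 had an unadjusted p under 0.05, where 1.51% of all IDs were called and 11.9% had such a p. These 2 were Solyc05g015510.3 and CNR. For CNR the interaction was 0.94 (95% interval 0.16 to 1.72, edgeR adjusted p = 0.276), with the depleted line at 0.67 ± 0.26 and the wild type at −0.27 ± 0.26 relative to irrigation (log2, SE). In the depleted line 6 of the 10 genes had an unadjusted p under 0.05 at recovery 1, where 24.2% of all IDs did. Besides CNR and Solyc05g015510.3 they were Solyc05g012040.3 at 0.55, Solyc03g114850.3 at 0.66, Solyc10g009080.3 at −1.05 and Solyc07g053810.3 at −2.15 on the log2 scale, with adjusted p of 0.133, 0.141, 0.176 and 0.167. Solyc03g114850.3 was called there without replicate 16 (0.93, 0.0477) and CNR without replicate 17 (0.89, 0.0411). Between the recoveries of the depleted line, 0 of the 10 genes were called by edgeR, DESeq2 or limma-voom and 1, CNR, had an unadjusted p under 0.05 (log2 −0.61, adjusted p = 0.564). Over all IDs 0% were called and 8.58% had such a p.

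No test was passed by 3 of the genes in the edgeR fit of all libraries. Solyc05g012040.3 ranged from 5.96 to 13 CPM over the 21 libraries, and its lowest group mean was the irrigated depleted line at 6.55 CPM. That group did not overlap the next group by mean, recovery 2 of the depleted line. It did overlap wild-type recovery 1, where replicate 1 stood at 6.62 CPM. The 3 irrigated depleted libraries, at 5.96, 7.04 and 6.66 CPM, lay below the irrigated wild type at 10.5, 8.63 and 8.03. The log2 difference was −0.47 ± 0.22 (SE, edgeR adjusted p = 0.112). Solyc10g078700.2 ranged from 1.20 to 5.51 CPM and Solyc04g045560.3 from 0.731 to 3.52. Groups next to each other in order of mean overlapped for both, but groups further apart could stand clear. For Solyc04g045560.3 irrigated wild type, at 2.35 to 2.56 CPM, lay above the irrigated depleted line (1.48 to 2.11) and wild-type recovery 2 (1.17 to 1.81). Wild-type recovery 1, at 1.99 to 2.60, also lay above recovery 2. None of these differences was called (edgeR adjusted p = 0.424, 0.347 and 0.504). Solyc10g078700.2 had 44 to 171 counts per library and Solyc04g045560.3 26 to 151. Their genotype differences averaged over conditions had 95% intervals of −0.12 to 0.94 and −0.73 to 0.23 on the log2 scale. Differences within those bounds were not told from 0 at this depth and replication.

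The order of the 7 group means differed among the genes. CNR was highest in irrigated wild type and at recovery 1 of the depleted line, each at 47.8 CPM, and lowest after GR24. Solyc10g009080.3 ran from irrigated wild type, at 20.0 CPM, down to recovery 1 of the depleted line, at 5.01. Solyc05g015840.3 and Solyc12g038520.2 had wild-type recovery 1 highest (70.3 and 15.8 CPM) and GR24 lowest (28.0 and 6.45 CPM). Neighbouring groups in these orders overlapped, except that the lowest unsprayed wild-type group of Solyc12g038520.2 stood clear of the highest depleted group. For Solyc05g015510.3 GR24 and the 2 recoveries of the depleted line formed the upper end, at 28.5 to 30.8 CPM. The lowest of these, recovery 1 of the depleted line, did not overlap the next group, wild-type recovery 1 at 22.1. The sprayed libraries, at 42.7, 24.0 and 25.7 CPM, did overlap wild-type recovery 1, which reached 24.2. For Solyc03g114850.3 GR24, at 17.7 CPM, stood clear of the next group by mean at the top. The irrigated depleted line, at 6.49 ± 0.913 (SD, n = 3), stood clear of its neighbour at the bottom. Neither stood clear of all groups. Irrigated wild-type replicate 14, at 14.0 CPM, lay inside the sprayed range. Replicate 16 of the depleted line at recovery 1, at 6.10, lay inside that of the irrigated depleted line.

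Likeness of profile was measured as the root mean square difference of the centred log2 group means over the 7 groups. The closest pair was Solyc05g015840.3 and Solyc12g038520.2, at 0.17, followed by Solyc05g012040.3 and Solyc03g114850.3, at 0.24. CNR was nearest to Solyc10g078700.2, at 0.40. The measure is not scaled by the size of change, so a nearly flat profile can lie near many others. Solyc10g078700.2 and Solyc05g012040.3 were not called over all 7 groups (edgeR adjusted p = 0.491 and 0.199), so their small distances do not show a shared pattern. Solyc07g053810.3 was the farthest partner of each of the other 9. Among all tested IDs with a span of group means at least 0.8 times that of CNR, the profiles most like that of CNR were those of Solyc06g066710.1 and Solyc05g013260.2, each at 0.11. Group levels of Solyc06g066710.1 were 0.154 to 0.404 CPM, close to the floor of a single library, and those of Solyc05g013260.2 were 2.27 to 5.09 CPM.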

How the data were processed

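The table holds the authors' deposited whole-number read counts per gene ID, not normalised. Per the submitters' processing notes, HISAT2 and HTSeq were used, with versions, settings and genome build not stated there. Per the labels' protocols the libraries came from a NEBNext Ultra kit, which does not mark strand, so antisense reads cannot be separated, and counts shared by near-identical paralogs are uncertain. The 6 columns that match no sample were not used. Groups and replicate numbers came from the sample titles.

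One edgeR 4.0.16 quasi-likelihood fit (R 4.3.3, filterByExpr, TMM factors, 1 mean per group, 14 residual degrees of freedom) covered all 21 libraries and 20373 IDs, with Benjamini-Hochberg adjustment over all of them. The fit was tested on simulated data. It gave 10 comparisons of 2 groups, the genotype average, 2 interactions and a test of all 7 groups. Standard errors came from the fold change and F statistic, and log2 CPM used a prior count of 2. Replicate pairs differed well beyond sampling noise (chi-square per degree of freedom 28.9 to 334). The named IDs are the 10 members and, for CNR, the 2 nearest profiles. The members and lists were chosen with earlier results of these data known. Partner genes of the miR156 module were not analysed here, since their symbols could not be matched to IDs. Alternatives were RLE and upper-quartile factors, no low-count filter, DESeq2 1.42.0, limma-voom 3.58.1, the compared groups alone, a replicate block and each library left out. The floor is a fixed count and carries no estimate of error. Intervals of fold changes rest on the standard errors of the quasi-likelihood fit, which include variation between libraries.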

Additional observations from a re-analysis of the deposited data

Results flagged for a closer look

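The response of Solyc05g015510.3 to recovery 2 differed between the genotypes by 1.07 on the log2 scale in the interaction test (edgeR adjusted p = 0.0167). Its mean level went from 18.5 to 30.7 CPM in the depleted line and from 21.8 to 17.2 CPM in the wild type, with 3 libraries in each group and no overlap between irrigation and recovery in either genotype. Leaving out each of the 12 libraries in turn gave values of 0.98 to 1.21.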

How the results depend on the processing

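No called difference of an SBP-box gene changed direction under any alternative run. The 5 genotype calls averaged over conditions were made under all 6 other settings and without any 1 library. In fits of the compared groups alone, the count of called genes between genotypes was 5 under irrigation, 0 at recovery 1 and 4 at recovery 2, where 34%, 12.5% and 30.7% of all IDs were called. It was 1, CNR, for wild-type recovery 2 (adjusted p = 0.0433, 10.6% of all IDs), 0 for recovery 1 of the depleted line (0 of 18802 IDs) and 1, CNR, after GR24 (17.9%). Without the low-count filter it was 1 for the genotypes at recovery 1 (13.7%). Leaving out 1 library gave 1 to 2 calls under irrigation (23.3 to 31.7% of all IDs), 0 to 2 at recovery 1 (9.33 to 22.1%), 0 to 1 at recoveries 1 and 2 of the depleted line (3.2 to 12.2% and 4.53 to 12.9%), and 2 to 4 after GR24 (17.5 to 25.6%), with 2 without irrigated wild-type replicate 6 or 7. Where 1 library is left out, the remaining pair is assumed to vary like the other groups. Solyc07g053810.3 was not called over all 7 groups by limma-voom (adjusted p = 0.0541).

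The genotypes share 2 replicate numbers under irrigation and 2 at recovery 2. Deviations of these same-numbered libraries correlated at −0.05 to 0.06. So few pairs cannot show that pairing is absent, and numbers shared by other groups were not checked. With the number as a replicate block, which left 4 residual degrees of freedom, 1 gene (CNR) was called under irrigation and 0 at recovery 2, beside 17.7% and 10.1% of all IDs. With about 3 libraries a group and, for Solyc07g053810.3, as few as 1 count in a library, depth and replication limit what small differences could be called.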

Other observations

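The ratio of counts of Solyc12g038520.2 to Solyc05g015510.3 within a library does not depend on the scaling between libraries. The pair was chosen after the values were seen, so no test is given. The ratio was 0.697 ± 0.187, 0.719 ± 0.0920 and 0.728 ± 0.0636 in wild type under irrigation and at recoveries 1 and 2 (SD, n = 3). In the depleted line it was 0.383 ± 0.140, 0.289 ± 0.0897 and 0.294 ± 0.0343, and after GR24 0.236 ± 0.169. Irrigated wild-type replicate 6, at 0.491, overlapped irrigated depleted replicate 6, at 0.543, and the genotypes did not overlap at either recovery.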
